A study of Homo sapiens with 3 samples.

Results

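The tubulin isotypes described here are 10 genes, chosen by their symbols among the 36601 genes of the feature table, all of which were found there. TUBA1A, TUBA1B and TUBA1C encode alpha-tubulins, and TUBB, TUBB2A, TUBB2B, TUBB3, TUBB4A, TUBB4B and TUBB6 encode beta-tubulins. Their unique molecular identifiers (UMIs), which count captured RNA molecules, were measured in 3 droplet libraries of induced melanocytes taken at D23, D32 and D44, with 1 library per day. D32 and D44 shared an induction and a sequencing batch, while D23 had an induction and a sequencing run of its own, so that day, induction and batch cannot be told apart between D23 and the later libraries. The labels disagree on the starting cells: the titles give induced pluripotent stem cells, but other fields give H9, an established line of human embryonic stem cells. Libraries were therefore told apart by day only. All cells had been grown as aggregates in Wnt3a-conditioned melanocyte differentiation medium with SCF and Endothelin-3. The protocol goes on to plating on fibronectin and then to passages, without saying which steps each library had reached, and cells were frozen before library preparation. The differentiation medium further held bFGF, cholera toxin, dexamethasone, ascorbic acid, insulin, transferrin, selenium, linoleic acid with albumin and the phorbol ester TPA, and from passage on it held serum and no TPA. No untreated or mature melanocyte sample was analysed here.

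The cell filters left 3796 (D23), 6023 (D32) and 5811 (D44) cells, with 49850363, 241341185 and 266709913 UMIs and median depths of 12574, 36375 and 42940 UMIs per cell. Cells were assigned to classes by 3 panels of 7 marker genes each that contain no tubulin gene, and a cell was gated when it passed exactly 1 of the 3 cutoffs. The melanocyte panel (PMEL, DCT, TYR, TYRP1, MLANA, MITF and TRPM1) gated 2473, 5513 and 5763 cells in D23, D32 and D44. The mesenchymal panel (COL1A1, COL3A1, COL5A1, COL6A3, LUM, DCN and POSTN) gated 484, 269 and 19 cells. The neural panel (ZIC1, ZIC2, NCAM1, SOX2, PAX6, POU3F2 and CRABP1) gated 251, 62 and 1 cells, so that D44 gave no neural sum. A further 373, 49 and 1 cells passed both the mesenchymal and the neural cutoff, and 139 cells of D23 and 41 of D32 passed both the melanocyte and the neural cutoff, and all of these stayed ungated. The libraries shared 8 (D23 and D32), 2 (D23 and D44) and 15 (D32 and D44) kept barcodes. Markers of other cell types were at or near 0: the keratinocyte markers KRT5, KRT14, KRT1 and TP63 gave at most 8 UMIs per library, the endothelial markers PECAM1, CDH5 and VWF at most 49, the blood markers PTPRC, HBA1 and LYZ at most 89, and the pluripotency markers POU5F1 and NANOG at most 12. The exception was DPPA4, listed with the pluripotency markers, whose levels were 67.5 (D23), 34.2 (D32) and 41.4 CPM (D44).

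Alpha- and beta-tubulin pair into the dimers from which microtubules are built. Vertebrates carry several genes for each partner, and the encoded isotypes are nearly identical except in their C-terminal tails, which protrude from the microtubule surface, are rich in glutamate, and are the sites where many microtubule-associated proteins bind and where enzymes add or remove glutamates and the terminal tyrosine of alpha-tubulin. TUBB3 and TUBB2B are widely used as neuronal isotypes, TUBB4A is best known from brain and oligodendrocytes, TUBB4B is found in cilia and in most tissues, and TUBB6 is a divergent, broadly expressed isotype. In melanocytes, microtubules are the tracks along which pigment granules travel towards the dendrites, and in dividing cells they form the mitotic spindle.

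The coding ends of 5 beta isotypes on which the results turn are shown because they encode these tails. Each is the last 60 coding bases of the Ensembl canonical transcript in GENCODE v44 on GRCh38 (hg38), 5′ to 3′ with the stop codon at the end, and capitals mark glutamate codons (GAA or GAG).
TUBB2A: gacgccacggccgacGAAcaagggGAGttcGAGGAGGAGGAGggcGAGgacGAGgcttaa
TUBB2B: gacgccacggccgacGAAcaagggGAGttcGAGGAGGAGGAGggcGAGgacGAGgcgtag
TUBB3: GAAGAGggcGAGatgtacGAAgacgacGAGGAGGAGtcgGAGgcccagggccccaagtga
TUBB4A: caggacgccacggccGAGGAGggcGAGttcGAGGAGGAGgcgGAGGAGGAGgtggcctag
TUBB4B: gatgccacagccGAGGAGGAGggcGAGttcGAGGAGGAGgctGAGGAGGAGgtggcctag

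The stretches lie at chr6:3153863-3153922 for TUBB2A and chr6:3224751-3224810 for TUBB2B (both minus strand), chr16:89935745-89935804 for TUBB3 (plus strand), chr19:6495164-6495223 for TUBB4A (minus strand) and chr9:137243497-137243556 for TUBB4B (plus strand). Each stretch lies within 1 coding exon. TUBB2A and TUBB2B differed in 2 of these 60 bases and TUBB4A and TUBB4B in 10. Among the 19 codons before the stop, TUBB4B had 10 glutamate codons, TUBB4A had 9, and TUBB2A, TUBB2B and TUBB3 had 8 each.

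Such likeness decides how well a short read can be assigned. Over the whole coding sequence TUBA1A and TUBA1B were 97.2% identical and TUBB2A and TUBB2B 98.1%, whereas other pairs of beta isotypes were 81.0% to 90.1% identical. Of all 50-base windows of the canonical transcript, 47.1% of TUBA1A, 56.6% of TUBA1B, 59.5% of TUBB2A and 49.8% of TUBB2B also occurred in another gene of the feature table, against 6.73% of TUBB4A and 1.09% of TUBB6. In the last 400 bases, where reads of a 3′ library would fall (the library chemistry is not given in the sources used here), the share was 12.8% for TUBA1A, 34.2% for TUBA1B, 42.7% for TUBB2A, 29.3% for TUBB4B and 0% for the other 6 isotypes. Reads of shared windows cannot be assigned to 1 gene, so the splits between TUBA1A and TUBA1B and between TUBB2A and TUBB2B are uncertain to that extent. TUBB3 begins 419 bases after the end of MC1R on the same strand of chromosome 16 (chr16:89921392-89938761 and chr16:89912119-89920973), and a readthrough transcript of both genes that GENCODE v44 annotates has no row of its own in the feature table. Each UMI stands for 1 captured molecule, so levels are given as counts per 1000000 UMIs of a class (CPM) and were not divided by transcript length. Intervals are exact 95% intervals and cover counting error only.

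The 3 classes differed most in TUBB4A, TUBB2B, TUBA1A and TUBB2A. TUBB4A was higher in melanocyte-gated cells than in the other classes, while TUBB2B, TUBA1A and TUBB2A were higher in neural-gated cells and TUBB2B also in mesenchymal-gated cells. Between melanocyte-gated and mesenchymal-gated cells 2 of 10 isotypes passed the test, 1 in each direction, where 16.8% of all 14897 genes tested did. Between melanocyte-gated and neural-gated cells 4 of 10 passed, 1 higher and 3 lower, where 15.7% of all genes did. Between mesenchymal-gated and neural-gated cells none passed in edgeR, where 1.32% of all genes did, although 4 had an unadjusted p below 0.05 and DESeq2 called 1 (TUBB2A). The median log2 fold change of the 10 isotypes was −0.35, −0.27 and −0.31 in the 3 comparisons, beside 0.08, 0.10 and 0.02 over all genes tested.

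**Figure D1:**
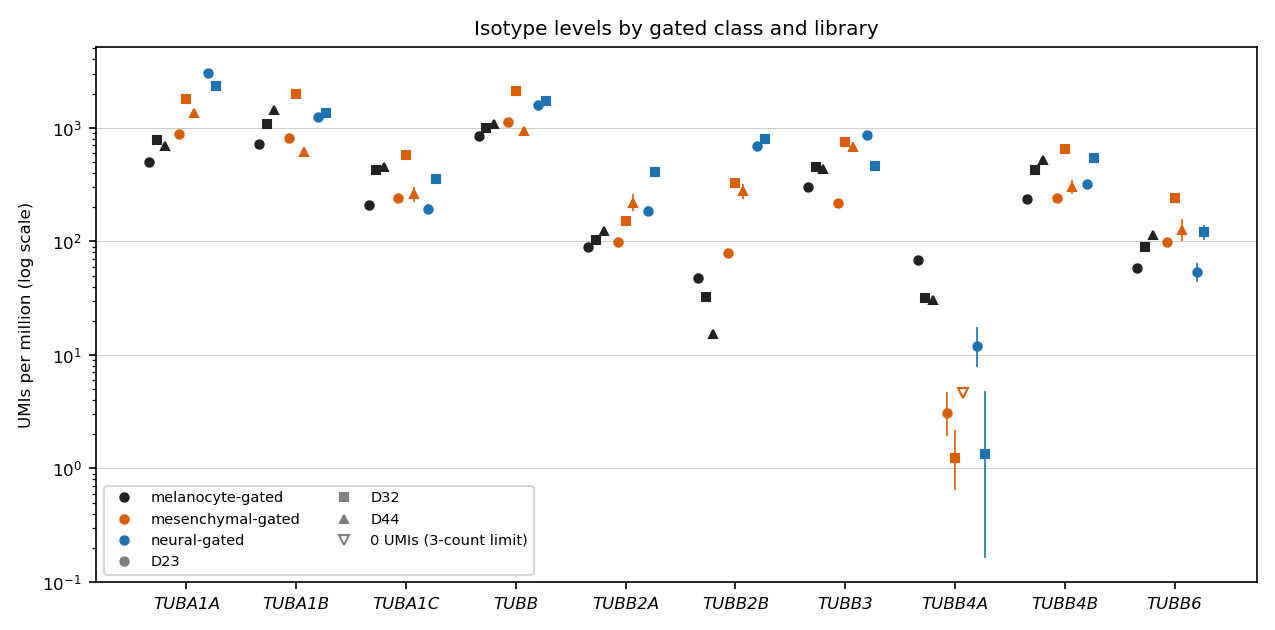
Levels of the 10 isotypes in CPM on a log scale, with colours for the gated class and symbols for the library. Bars are exact 95% Poisson intervals and the open triangle marks the 3-count limit where no UMI was found. The melanocyte-gated values of TUBB4A (30.3 to 67.8) all lie above those of the other classes, and those of TUBB2B (15.1 to 47.1) all lie below.

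TUBB4A had 67.8 CPM in melanocyte-gated cells of D23, 31.9 in D32 and 30.3 in D44. In mesenchymal-gated cells it had 3.10 CPM in D23 (21 UMIs), 1.24 in D32 (12 UMIs) and no UMI among 651068 in D44, with an interval up to 5.67 CPM. In neural-gated cells it had 12.0 CPM in D23 (26 UMIs) and 1.34 in D32 (2 UMIs). The melanocyte-gated values did not overlap with those of either other class taken as a whole. Of the 26 neural UMIs of D23, 24 came from cells positive for a neuronal panel, which are described below. TUBB4A had 25.9 CPM in those cells, with an interval of 16.6 to 38.5 that includes the melanocyte-gated levels of D32 and D44. This interval lay below the melanocyte-gated level of D23, the same library. TUBB4A was higher in melanocyte-gated than in mesenchymal-gated cells by a log2 fold change of 4.70 ± 0.46 (SE, 3 libraries, edgeR adjusted p = 0.00132) and higher than in neural-gated cells by 3.22 ± 0.50 (adjusted p = 0.00842, 2 neural sums). Without D44, where the mesenchymal sum had no UMI, the former was 4.59 (adjusted p = 0.00674). Within libraries the ratio to mesenchymal-gated cells was 21.9 in D23, 25.6 in D32 and at least 5.35 in D44 (the lower end of its interval). The difference from neural-gated cells passed in most alternatives, where fits without D23 or without D32 leave 1 neural sum and are not counted. This difference did not pass without the library as a replicate block or when 10% free RNA was taken off (adjusted p = 0.062). It also did not pass when Louvain clusters replaced the gates (log2 fold change 1.60, adjusted p = 0.0622).

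The level of TUBB4A in the other classes can be set beside pigment RNA found there. In mesenchymal-gated cells TUBB4A stood at 4.57% (D23) and 3.91% (D32) of its melanocyte-gated level, and the melanocyte panel at 1.68% and 1.05% of its own. In neural-gated cells of D23 TUBB4A stood at 17.6% and the panel at 5.28%, and in D32 at 4.21% and 1.56%. PMEL alone, a gene of the panel, stood at 10.9% and 2.12% in neural-gated and at 2.17% and 1.07% in mesenchymal-gated cells of D23 and D32. The part that free RNA has in these low values was not tested. Shares of cells were compared on counts thinned to 5000 UMIs per cell, which left out shallower cells, all of them in D23 (41 melanocyte-gated, 16 mesenchymal-gated and 54 neural-gated, the last leaving 197). Of the thinned cells, 27.0% of melanocyte-gated cells in D23, 13.9% in D32 and 13.8% in D44 had a TUBB4A UMI, against 1.92%, 0.372% and 0 of 19 in mesenchymal-gated cells and 5.08% and 1.61% in neural-gated cells. Without thinning the melanocyte-gated shares were 53.8%, 63.2% and 64.7%, in the reverse order of the levels.

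RefSeq (GRCh38.p14) places 2 start sites at TUBB4A, and the promoter of 1 of them is shown because this isotype was higher in melanocyte-gated cells than in the other classes and this stretch holds an E-box, a motif that many basic helix-loop-helix factors bind. The stretch covers 250 bases before and 50 from the start site, at chr19:6502260-6502559 on the minus strand, with the motif CACGTG in capitals.
TUBB4A promoter: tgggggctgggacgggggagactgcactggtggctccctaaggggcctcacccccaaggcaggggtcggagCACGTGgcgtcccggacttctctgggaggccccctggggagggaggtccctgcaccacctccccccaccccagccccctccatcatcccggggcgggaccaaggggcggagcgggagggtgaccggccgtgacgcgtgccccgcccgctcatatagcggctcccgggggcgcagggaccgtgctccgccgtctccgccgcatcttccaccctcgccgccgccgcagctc
CACGTG reads the same on both strands and begins 179 bases before the start site here, and it occurred in 7.26% of the 35116 promoters of this length. The related letters CATGTG, searched on both strands, were found in no promoter of the 10 isotypes and in 11.1% of all promoters. Of the isotypes, TUBA1C and TUBB also had 1 promoter each with CACGTG. A match of letters is a description and not a binding site.

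TUBB2B, an isotype known from migrating and differentiating neurons, had its lowest levels in melanocyte-gated and its highest in neural-gated cells. In melanocyte-gated cells it had 47.1 CPM in D23, 32.2 in D32 and 15.1 in D44. In mesenchymal-gated cells the values were 78.9, 328 and 276 CPM. In neural-gated cells they were 695 in D23 and 791 in D32. The order of the classes was the same in each library that had them, and the 3 classes did not overlap. TUBB2B was lower in melanocyte-gated than in neural-gated cells by a log2 fold change of −4.28 ± 0.64 (edgeR adjusted p = 0.00741) and lower than in mesenchymal-gated cells by −2.79 ± 0.60 (adjusted p = 0.0231). The latter call was lost without D44, whose mesenchymal sum rests on 19 cells (−2.16, adjusted p = 0.103). On thinned counts 85.3% and 93.5% of neural-gated cells in D23 and D32 had a TUBB2B UMI, against 25.9% and 75.1% of mesenchymal-gated and 19.4% and 13.2% of melanocyte-gated cells.

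TUBA1A, the alpha isotype that prevails in developing neurons, had 499, 779 and 686 CPM in melanocyte-gated cells of D23, D32 and D44. The mesenchymal-gated values were 879, 1798 and 1355 CPM, and the neural-gated values 3065 and 2354. Every mesenchymal-gated value thus lay above every melanocyte-gated one, and both neural-gated values above all others. The difference from neural-gated cells passed (log2 fold change −1.95 ± 0.35, edgeR adjusted p = 0.0139, not past the threshold with Louvain clusters, adjusted p = 0.0717), and that from mesenchymal-gated cells did not (−0.95 ± 0.30, adjusted p = 0.0758), although it did so in 7 of 17 alternatives. TUBB2A had 88.9, 104 and 123 CPM in melanocyte-gated cells, 98.8, 149.8 and 219.6 in mesenchymal-gated cells, and 186 and 409 in neural-gated cells of D23 and D32. It was lower in melanocyte-gated than in neural-gated cells by −1.40 ± 0.21 (adjusted p = 0.00765), but it did not pass without the replicate block. Without D32, which leaves 1 neural sum, the log2 fold change of TUBB2A was −1.08.

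TUBB3, the beta isotype whose protein is stained as a neuronal and neural crest marker, did not pass in any of the 3 class comparisons. Its level in melanocyte-gated cells was 299.5 CPM in D23 (95% interval 294 to 305), 450.3 in D32 and 437 in D44. In mesenchymal-gated cells it was 217 in D23, 749 in D32 and 676 in D44, so that the melanocyte-gated cells were higher in D23 and lower in the later libraries. In neural-gated cells it was 866 in D23 and 461 in D32, the latter with an interval of 427 to 497 that overlaps the melanocyte-gated level of the same library. The log2 fold change of melanocyte-gated over mesenchymal-gated cells was −0.32 ± 0.46 (edgeR adjusted p = 0.704) and over neural-gated cells −0.82 ± 0.56 (adjusted p = 0.364). Without D32 the latter was −1.63 and without D23 it was 0.19, each with 1 neural sum left. MC1R, the melanocortin receptor gene upstream of TUBB3, had 7.26, 4.81 and 7.06 CPM in melanocyte-gated cells, 3.54, 1.24 and 3.07 in mesenchymal-gated and 0.921 and 2.01 in neural-gated cells. Neither of its differences from melanocyte-gated cells passed (log2 fold changes 1.42 and 2.28, adjusted p = 0.0798 and 0.0607).

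**Figure D2:**
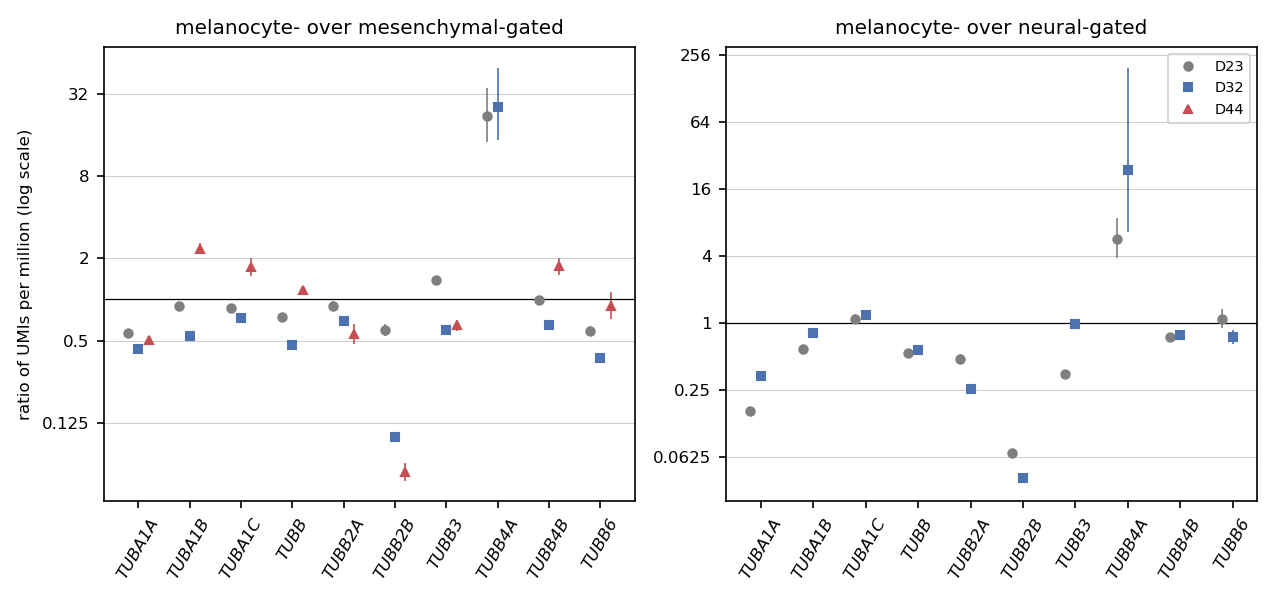
Ratio of CPM in melanocyte-gated cells to mesenchymal-gated cells (left) and to neural-gated cells (right) in each library, on a log scale, with exact 95% intervals and a line at 1. TUBB4A lies above 1 in every library with a UMI in both classes (D44 had none in mesenchymal-gated cells and is not drawn), TUBB2B lies below 1 throughout, and TUBB3 lies on both sides of 1 on the left.

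The remaining isotypes did not pass between classes. TUBB, the beta isotype with the highest level in most tissues, had 843 to 1082 CPM in melanocyte-gated, 931 to 2118 in mesenchymal-gated and 1577 to 1729 in neural-gated cells. TUBA1B had 721 to 1442, 613 to 1996 and 1232 to 1338 CPM, TUBA1C 209 to 452, 241 to 578 and 192 to 354, TUBB4B 237 to 523, 241 to 647 and 319.5 to 542, and TUBB6 58.2 to 113, 99.0 to 239 and 53.4 to 121. The ranges of these isotypes overlapped between melanocyte-gated and mesenchymal-gated cells. In D44 the mesenchymal-gated cells had lower TUBA1B, TUBA1C and TUBB4B than the melanocyte-gated cells, with ratios of melanocyte-gated to mesenchymal-gated cells of 2.35, 1.73 and 1.75, and in D32 these ratios were 0.54, 0.729 and 0.652. A panel of G2/M genes moved with them: it stood at 1537 CPM in melanocyte-gated and 253 in mesenchymal-gated cells of D44, and at 1383 and 1526 in D32. The part of the cell cycle in these ratios was not tested. All 10 isotypes together had 3071, 4397 and 4904 CPM in melanocyte-gated cells, 3791, 8605 and 4757 in mesenchymal-gated cells and 8197 and 8102 in neural-gated cells.

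As shares of their own family, the isotypes gave each class a different makeup. Of the UMIs of the 3 alpha isotypes in melanocyte-gated cells, TUBA1B took 50.5% in D23, 47.3% in D32 and 55.9% in D44, and TUBA1A took 35.0%, 34.2% and 26.6%. In neural-gated cells TUBA1A took 68.3% in D23 and 58.2% in D32, and TUBA1B took 27.4% and 33.1%. In mesenchymal-gated cells TUBA1A took 45.6%, 41.1% and 60.8%. TUBA1B was thus the leading alpha isotype in melanocyte-gated cells of all 3 libraries, TUBA1A in neural-gated cells of both, and mesenchymal-gated cells had TUBA1A ahead in D23 and D44 and TUBA1B ahead in D32.

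Among the 7 beta isotypes TUBB had the largest share in each class and library, at 46.6% to 51.4% in melanocyte-gated, 36.8% to 60.4% in mesenchymal-gated and 42.5% to 42.6% in neural-gated cells. The second place was held by TUBB3 in D23 (18.2%) and D32 (21.3%) and by TUBB4B in D44 (22.5%) in melanocyte-gated cells. TUBB2B took 18.7% and 19.5% of beta UMIs in neural-gated cells, 4.23%, 7.76% and 10.9% in mesenchymal-gated cells and 2.87%, 1.52% and 0.651% in melanocyte-gated cells. TUBB4A took 4.13% in melanocyte-gated cells of D23, 1.5% in D32 and 1.30% in D44, and at most 0.323% in the other classes. The alpha isotypes together made up 46.5%, 51.8% and 52.6% of all tubulin UMIs in melanocyte-gated cells.

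Within the neural-gated cells of D23, 144 of 251 cells had at least 2 UMIs of a neuronal panel (ELAVL3, ELAVL4, NEUROD1, NHLH1, INSM1, ONECUT2 and POU4F1). With 1 library there is no test, and the values are a description. TUBB3 had 1677 CPM in the panel-positive and 261 in the other neural-gated cells, a ratio of 6.42 (95% interval 5.70 to 7.26). TUBB2B had 1205 and 315 CPM (ratio 3.83, interval 3.41 to 4.30), and TUBA1A had 5007 and 1618 (ratio 3.09, interval 2.94 to 3.26). The level of TUBB3 in the panel-negative cells was below that in melanocyte-gated cells of the same library. TUBB4A had 24 UMIs in panel-positive cells (25.9 CPM) and 2 in panel-negative cells (1.61 CPM), a ratio of 16.1 (interval 4.00 to 141). TUBA1B (1.04, interval 0.961 to 1.12) and TUBB2A (1.03, interval 0.843 to 1.26) had intervals that include 1, and TUBA1C (0.678), TUBB4B (0.829) and TUBB6 (0.557) were lower in panel-positive cells. The panel-positive cells held 5542 UMIs per cell at the median and the panel-negative cells 10627. In D32 only 3 of 62 neural-gated cells were panel-positive.

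The 373 cells of D23 that passed both the mesenchymal and the neural cutoff had lower levels than the neural-gated cells, with 559 CPM of TUBA1A, 86.8 of TUBB2B, 143 of TUBB3 and 1.08 of TUBB4A. These are closer to the mesenchymal-gated than to the neural-gated values of D23. In D32 the 49 such cells had 1706 CPM of TUBA1A, 515 of TUBB2B and 388 of TUBB3, and no TUBB4A UMI among 1341895, with an interval up to 2.75 CPM. When these cells were counted as neural, an alternative chosen after seeing the data, the same number of isotypes (4) passed between melanocyte-gated and neural cells.

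Between days the melanocyte-gated cells are described without a test, as there was 1 library per day. From D23 to D32, 6 of 10 isotypes differed by over 1.5-fold, where 36.6% of 10387 genes at 5 CPM or more did. Of these, TUBA1C (ratio 2.02, 95% interval 1.97 to 2.07), TUBB4B (1.78), TUBA1A (1.56), TUBB6 (1.54) and TUBB3 (just past the limit) were higher in D32, and TUBB4A (0.47, interval 0.448 to 0.493) was lower. From D32 to D44, which share an induction and a batch, 1 of 10 isotypes differed by over 1.5-fold, TUBB2B (ratio 0.471, interval 0.453 to 0.489), where 5.66% of 9917 genes did. TUBA1B stood at 1.34 times and TUBA1A at 0.88 times its D32 level in D44, so that TUBA1B gained in the alpha family. All 10 isotypes together were 1.43 times as high in D32 as in D23 and 1.12 times as high in D44 as in D32. The median gene stood at a log2 ratio of −0.10 between D23 and D32 and of −0.02 between D32 and D44.

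Within the melanocyte-gated cells, those high in a panel of 12 G2/M genes were compared with those low in both this panel and a panel of 16 S-phase genes, neither of which contains a tubulin gene. The G2/M-panel-high sums held 767, 2063 and 2350 cells, the S-panel-high sums 417, 1258 and 1055, and the others 1289, 2192 and 2358. In G2/M-panel-high cells 9 of 10 isotypes were higher and none lower, where 54.8% of 16168 genes passed in either direction. Their median log2 fold change was 1.08, beside −0.03 over all genes tested. In S-panel-high cells 9 of 10 were higher and none lower, with a median of 0.33 beside −0.01, where 28.9% of all genes passed.

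TUBB4B had the largest difference. It had 96.8, 144 and 151 CPM in cells low in both panels of D23, D32 and D44 and 471, 743 and 914 CPM in G2/M-panel-high cells, a log2 fold change of 2.44 ± 0.05 (edgeR adjusted p = 2.04e-18). TUBA1B had 349, 360.1 and 557 CPM and 1249, 1756 and 2203 CPM (2.06 ± 0.06, adjusted p = 2.89e-16). TUBA1C rose by 1.86 ± 0.03, TUBB6 by 1.47 ± 0.05 and TUBB by 1.43 ± 0.04. The G2/M-panel-high values of these 5 isotypes lay above all values of the cells low in both panels, and so did those of TUBB2A (114 to 151 against 70.6 to 94.7 CPM). How many of all genes did so was not counted. Smaller differences passed as well: TUBB2A rose by 0.72 ± 0.04, TUBA1A by 0.59 ± 0.04 and TUBB3 by 0.33 ± 0.05. TUBB4A rose by 0.26 ± 0.06 (adjusted p = 9.81e-04), which passed in 11 of 14 alternatives and was lost without D32 (0.15, adjusted p = 0.0737), and TUBB2B did not pass (0.04 ± 0.06, adjusted p = 0.536).

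The makeup of the alpha family differed with it. TUBA1A took 48.2%, 53.7% and 41.2% of alpha UMIs in cells low in both panels and 27.4%, 27.7% and 21.9% in G2/M-panel-high cells, while TUBA1B went from 39.7%, 30.2% and 43.5% to 55.7%, 52.0% and 58.9%. Of beta UMIs TUBB4B took 8.85%, 10.8% and 12.1% in cells low in both panels and 19.0%, 25% and 27.3% in G2/M-panel-high cells. TUBB3 went the other way, from 24.4%, 32.8% and 28.6% to 13.6%, 16.1% and 14.9%. In cells low in both panels TUBA1A thus had the largest alpha share in D23 and D32 and TUBA1B in D44. All 10 isotypes together had 1974, 2524 and 2531 CPM in cells low in both panels and 4718, 6349 and 7091 CPM in G2/M-panel-high cells. G2/M-panel-high cells were also deeper, with medians of 14773, 44178 and 49767 UMIs per cell against 11921, 31548 and 38170.

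In S-panel-high cells TUBA1B had the largest difference, with 687, 841 and 1273 CPM (log2 fold change 1.14 ± 0.06, edgeR adjusted p = 9.69e-12). TUBB4B rose by 0.70 ± 0.05, TUBB by 0.59 ± 0.04, TUBB6 by 0.57 ± 0.06 and TUBA1C by 0.46 ± 0.03. The differences of TUBB2A, TUBB3 and TUBB4A (0.16, 0.15 and 0.21) were small and each did not pass without D23 or without D44, which left 6 isotypes in either case. Of 14 alternatives TUBB3 passed in 4, TUBB4A in 9 and TUBB2A in 10, and TUBB3 was lower in S-panel-high cells of D32 (ratio 0.953, interval 0.937 to 0.97) and higher in those of D23 and D44 (1.18 and 1.22). TUBB2B did not pass (0.08 ± 0.06, adjusted p = 0.384). TUBG1, the gamma-tubulin of the centrosome, rose in both phases, by 1.59 ± 0.07 in G2/M-panel-high and 0.86 ± 0.07 in S-panel-high cells. Of the 4 other tubulin genes tested there, TUBD1 (0.90 ± 0.10) and TUBE1 (0.23 ± 0.07) were also higher in G2/M-panel-high cells, and the other gamma-tubulin gene, TUBG2, was lower (−0.32 ± 0.08, edgeR adjusted p = 0.00317).

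Melanocyte-gated cells low in both cycle panels were further cut into 3 parts of about equal cell number within each library by the summed share of the melanocyte panel, and the highest and lowest parts are here called pigment-high and pigment-low cells. In pigment-high cells 8 of 10 isotypes were lower than in pigment-low cells and none was higher, where 12.9% of 14165 genes passed in either direction. The median log2 fold change of the isotypes was −0.43, beside −0.002 over all genes tested. All 10 isotypes together had 2347, 2879 and 3167 CPM in pigment-low cells of D23, D32 and D44 and 1644, 2137 and 1951 CPM in pigment-high cells.

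TUBB3 had the largest difference, with 325, 545 and 592 CPM in pigment-low cells and 205, 322 and 189.9 in pigment-high cells, a log2 fold change of −0.99 ± 0.15 (edgeR adjusted p = 0.0041). It was lower in 3 of 3 libraries, with ratios of 0.63, 0.591 and 0.321, and the cells between them (271, 444 and 298 CPM) had intermediate levels. TUBB2B followed (−0.63 ± 0.17, adjusted p = 0.0388), with ratios of 0.758, 0.808 and 0.408, but it passed in only 7 of 14 alternatives and did not pass once D44 was left out (−0.30, adjusted p = 0.094). TUBA1B fell by 0.56 ± 0.08, TUBB6 by 0.45 ± 0.08, TUBA1A by 0.44 ± 0.05, TUBB by 0.42 ± 0.06 and TUBB4B by 0.37 ± 0.06 on the log2 scale. TUBA1C fell by 0.29 ± 0.08 (adjusted p = 0.0412), which passed in 9 of 14 alternatives and was lost without D23 (−0.22, adjusted p = 0.0901) and without D44 (−0.23, adjusted p = 0.167). TUBB4A (−0.07 ± 0.10, adjusted p = 0.674) and TUBB2A (−0.13 ± 0.06, adjusted p = 0.2) did not pass. MC1R, the neighbour of TUBB3, had 8.65, 5.70 and 13.0 CPM in pigment-low cells and 6.79, 4.60 and 4.47 in pigment-high cells (−0.83 ± 0.24, adjusted p = 0.0479).

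As the parts were cut by the melanocyte panel, its own difference follows from the rule: it stood at 2447, 6688 and 7236 CPM in pigment-low and 7356, 16857 and 20552 in pigment-high cells. The G2/M panel still stood at 238, 199 and 193 CPM in pigment-low and 177, 159.6 and 154 in pigment-high cells, and the S panel at 312, 330.3 and 319.8 against 265, 282 and 253. The part of these residual differences in the isotype values was not tested. When all melanocyte-gated cells were used instead, 8 isotypes passed.

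**Figure D3:**
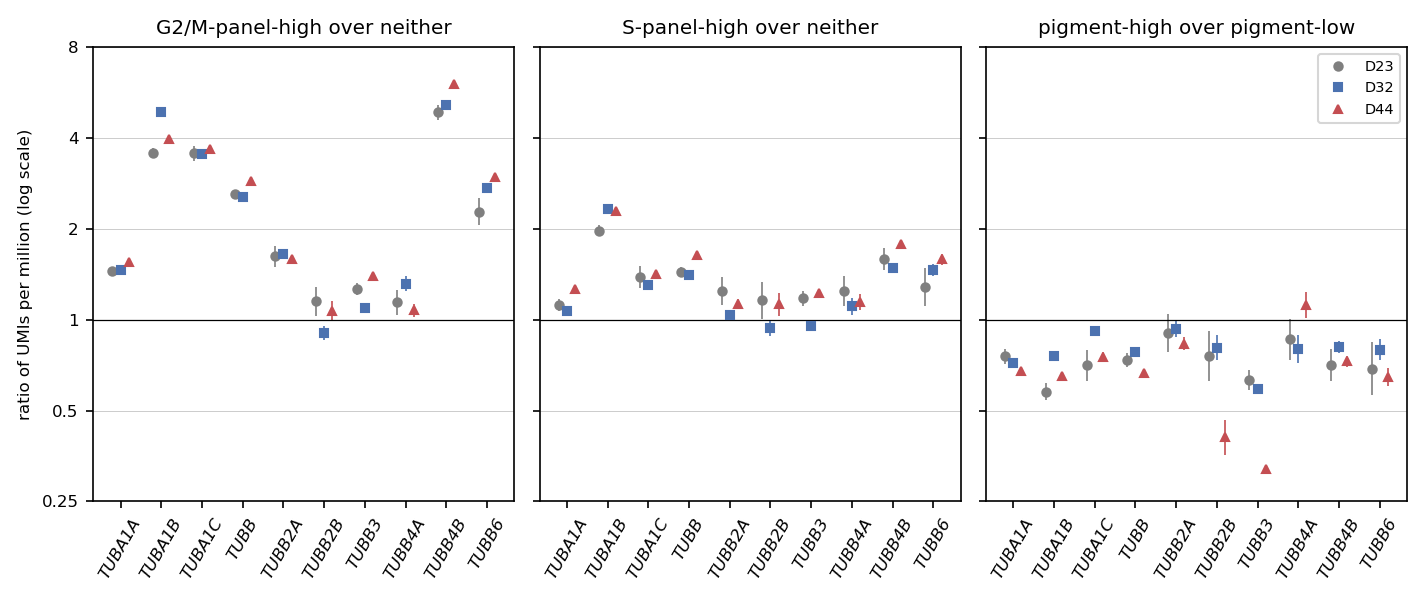
Ratio of CPM within melanocyte-gated cells of each library, on a log scale with exact 95% intervals and a line at 1: G2/M-panel-high over cells low in both cycle panels (left), S-panel-high over the same cells (middle) and pigment-high over pigment-low cells (right). TUBB4B reaches 4.86 to 6.03 on the left, TUBA1B leads in the middle, and TUBB3 has the lowest ratio on the right in D32 and D44 (0.591 and 0.321), with TUBA1B lowest in D23.

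The genes that fold, modify and bind tubulin were taken from lists. Of 12 other tubulin genes 5 were tested between classes, and TUBA4A, a further alpha isotype, was lower in melanocyte-gated cells than in both other classes. Its levels were low throughout. They were 0.121 to 0.185 CPM in melanocyte-gated (84 UMIs), 0.738 to 4.61 in mesenchymal-gated (19 UMIs) and 0.46 to 8.72 in neural-gated cells (14 UMIs). TUBA4A passed the filter on low counts only through the other classes. The direction of its calls was thus set beforehand, and no p-value is given. Of 22 genes for tubulin folding (the CCT chaperonin, prefoldin and tubulin cofactors), all tested, none passed between classes in edgeR. In G2/M-panel-high cells 14 of the 22 were higher and 2 lower, where 54.8% of all genes passed in either direction, the largest differences being those of the chaperonin subunits CCT5 (0.57 ± 0.03) and TCP1 (0.47 ± 0.03), and in S-panel-high cells 10 were higher and 1 lower, where 28.9% of all genes passed. None of the 22 passed between pigment-high and pigment-low cells, where 12.9% of all genes did.

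Of 21 measured genes for tubulin modification 17 were tested between classes. Between melanocyte-gated and mesenchymal-gated cells 2 were higher and 2 lower, and between melanocyte-gated and neural-gated cells 2 were higher and 3 lower, where 16.8% and 15.7% of all genes passed. TTLL4, which starts glutamate chains, had 17.2, 23.1 and 24.1 CPM in melanocyte-gated cells, 7.09, 7.36 and 12.3 in mesenchymal-gated and 7.37 and 6.03 in neural-gated cells, and passed in both comparisons (1.40 ± 0.25 and 1.70 ± 0.33). TTLL12 was higher as well (1.36 and 1.35). SVBP, the partner of VASH2, was lower in melanocyte-gated cells than in mesenchymal-gated (−0.73) and neural-gated cells (−1.34). ATAT1, the alpha-tubulin acetyltransferase, was lower than in neural-gated cells (−1.59 ± 0.30). VASH2, which removes the terminal tyrosine of alpha-tubulin, is also among the lower genes counted in both comparisons. It had only 0.42 to 1.51 CPM in melanocyte-gated cells and passed the filter on low counts through the other classes. The direction of its calls was thus set beforehand, and no fold change is given. Between pigment-high and pigment-low cells TTLL7 (0.75 ± 0.12) and TTLL4 (0.49 ± 0.09) were higher in the former. Between G2/M-panel-high cells and those low in both panels 7 of 19 were higher and 6 lower, where 54.8% of all genes passed.

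Of 40 microtubule-associated genes, all tested between classes, 1 was higher and 3 were lower in melanocyte-gated than in mesenchymal-gated cells, where 16.8% of all genes passed: CLASP1 (1.23 ± 0.22) was higher and MAP1A (−1.84 ± 0.19), MAP1B (−1.73 ± 0.33) and MAP9 (−1.28 ± 0.18) were lower. Against neural-gated cells 11 of the 40 were lower and none higher, where 15.7% of all genes passed in either direction. This count holds DCX, whose direction was set by the filter on low counts. MAP6, MAP7 and STMN4 were tested too, with at most 0.726, 0.287 and 0.00452 CPM in melanocyte-gated cells. The count was not made without such genes, so it is not read as a result about the list. DCX, which binds microtubules of migrating neurons, had 222 CPM in neural-gated cells of D23 and 24.1 in D32. In melanocyte-gated cells it had at most 0.122 CPM (31 UMIs), so it entered the test only through the other classes. The direction of its call was thus set beforehand, and no p-value is given. MAP2, a dendritic microtubule-associated gene, had 255 and 51.0 CPM in neural-gated cells and 10.0, 9.26 and 6.52 in melanocyte-gated cells (−3.04 ± 0.80, adjusted p = 0.0461). MAP6 passed between mesenchymal-gated and neural-gated cells (−4.52 ± 0.67, adjusted p = 0.0384), the only gene of these lists that did. Its level in mesenchymal-gated cells was low, at 0.622 to 3.54 CPM (32 UMIs). In G2/M-panel-high cells 14 of 37 were higher and 13 lower (54.8% of all genes passed), led by the spindle genes KIF2C (5.70 ± 0.11), PRC1 (4.44 ± 0.05) and TPX2 (3.80 ± 0.05). These cells were chosen by G2/M genes, so a rise of spindle genes goes with the choice and is not a separate result. In pigment-high cells, where 12.9% of all genes passed, 2 of 35 were higher, DCLK1 (1.40 ± 0.22) and TPPP (1.02 ± 0.24), and 6 lower, among them MAP2 (−0.67 ± 0.12), MAP1B (−0.45 ± 0.06) and STMN2 (−0.43 ± 0.09).

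The genes whose levels ran most like those of an isotype were ranked by Pearson r of log2(CPM + 1) over the 8 library-by-class sums, among 14874 genes. These sums share libraries and depth, so r is a description only. TUBB4A ran most like SLC4A4, TMCC2 and AGPS (r = 0.982, 0.982 and 0.978), TUBB2B like RAB3IP, PIK3R3 and CNTN4 (0.974, 0.974 and 0.97), TUBA1A like GNG5, ZSCAN26 and NPTX2 (0.994, 0.987 and 0.969), and TUBB3 like SAMD10, EFS and PRPSAP2 (0.954, 0.935 and 0.935). TUBA1B ran most like MCM2, CDC5L and PTGES3 (0.969, 0.962 and 0.956) and TUBA1C like TK1, CTU2 and TWISTNB (0.969, 0.965 and 0.959). TUBB ran like ODC1, CLDN1 and SLC25A10, TUBB2A like AMIGO1, COTL1 and AL118558.3, TUBB4B like SAC3D1, SF3A2 and POLR2C, and TUBB6 like WTIP, LMAN1 and KDELR2. Over all 30 pairs r was 0.935 to 0.994.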

How the data were processed

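For every library the authors deposited a matrix of raw UMI counts (genes by barcodes), neither normalized nor filtered by the study's cell limits. Per the labels it came from Cell Ranger 6.1.2 and hg38. The annotation release and the 10x chemistry are not given in the sources used here. Cells were kept by the study's limits: between 1000 and 7000 genes with 500 to 50000 UMIs in D23, between 3000 and 9000 genes with 500 to 100000 UMIs in D32 and D44 (all limits exclusive), and at most 10% mitochondrial UMIs. Cutoffs of the marker panels were set by Otsu's method on log2(1 + panel UMIs per 10000), in D23 for the classes and over melanocyte-gated cells of all libraries for the cycle panels. They came to 6.83 (melanocyte), 4.17 (mesenchymal), 8.57 (neural), 7.86 (G2/M) and 6.58 (S) per 10000, and 167 cells of D23 lay within 0.5 (log2) of the melanocyte cutoff, 124 of the mesenchymal and 227 of the neural.

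Cells are not replicates, so UMIs were summed per library and class (at least 10 cells) and compared with edgeR 4.0.16 in R 4.3.3 (TMM, filterByExpr, quasi-likelihood test, library as a block, Benjamini-Hochberg over all genes tested, threshold 0.05). Sums of 1 library share its droplets and run, which is what pairs them. The libraries are the only replicates, and with the library as a block p-values measure whether a difference recurs over them. The libraries are also different days, and D32 and D44 share an induction. Alternatives were DESeq2 1.42.0, other scaling, no filter, no block, each library left out, other cutoffs, doublets left out, free RNA taken off, thinning to 5000 UMIs and Louvain clusters (Scanpy 1.11.5). Doublets were called with Scrublet at the expected share (196, 432 and 395 cells) because its automatic threshold gave 58, 1 and 4, and they were kept. In simulated data 85, 72 and 60 of 100 genes changed by a log2 fold of 2 were called in the 3 class comparisons (in the order of the text), and 13, 8 and 2 of 100 changed by a log2 fold of 1. The simulation gave each gene 1 mean over all sums, 1 common dispersion (0.0831) for all genes and no library effect. The real sums differ in these respects, so the recovered shares need not hold for them.

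The isotypes and lists were chosen with earlier results of these data known. From the lists, up to 6 genes per comparison with the largest differences among those that passed were eligible to be named. Positions and coding sequences are from GENCODE v44 by gene identifier, and promoters from RefSeq. Protein sequences were not used here. The coding ends of the alpha isotypes are not reported here.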

Additional observations from a re-analysis of the deposited data

Results flagged for a closer look

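Isotypes were singled out where the ratio between 2 classes was over 1.2-fold above 1 in 1 library and over 1.2-fold below 1 in another, with counting intervals that did not include 1. The difference between libraries was not tested, since each has 1 sum per class, and D23 differs from the others in induction and batch as well as in day. For melanocyte-gated over mesenchymal-gated cells, in D23, D32 and D44, the ratios were 1.38, 0.601 and 0.646 for TUBB3, 0.891, 0.54 and 2.35 for TUBA1B, 0.865, 0.729 and 1.73 for TUBA1C, and 0.984, 0.652 and 1.75 for TUBB4B. The mesenchymal-gated sum of D44 rests on 19 cells. For mesenchymal-gated over neural-gated cells, in D23 and D32, the ratios were 0.25 and 1.62 for TUBB3, 0.657 and 1.49 for TUBA1B, and 0.714 and 1.22 for TUBB. The neural-gated cells of D23 were mostly positive for the neuronal panel (144 of 251), and those of D32 were not (3 of 62).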

How the results depend on the processing

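The counts of isotypes that passed kept within 1.5 times their reported values except as follows. DESeq2 called 4 isotypes between melanocyte-gated and mesenchymal-gated cells. Without the library as a replicate block 2 isotypes passed between melanocyte-gated and neural-gated cells, 3 for G2/M-panel-high cells, and 0 for S-panel-high cells and for pigment-high cells (2 and 1 at an unadjusted p below 0.05 in edgeR), as the spread between libraries then enters the error, while DESeq2 with the block called 8 and 7. With Louvain clusters 2 passed between melanocyte-gated and neural-gated cells. Between mesenchymal-gated and neural-gated cells 1 passed without a filter and 1 with DESeq2. Fits without D23 or without D32 leave 1 neural sum, so their counts against neural-gated cells are not given. The log2 fold change of TUBB3 turned in sign, without passing, in melanocyte-gated over mesenchymal-gated cells with 1 library left out (−0.61 to 0.0473). Over neural-gated cells it ran from −1.63 to 0.19 with 1 library left out, where leaving out D23 or D32 leaves 1 neural sum. It was 0.00791 over neural-gated cells when cells past both cutoffs were counted as neural. Values for single isotypes were tallied only for differences that passed in the main fit and for a few others. These others were TUBB3, TUBA1A and TUBB6 in melanocyte-gated over mesenchymal-gated cells, TUBB3 over neural-gated cells, and TUBB2A in mesenchymal-gated over neural-gated cells. Apart from the turns in sign, 476 values kept their direction and their side of the threshold. A further 59 no longer passed, 25 of these without the block, and 13 passed only under the alternative. The tally includes fits with 1 neural sum. Scaling by total UMIs moved the median of all genes tested between melanocyte-gated and neural-gated cells from 0.10 to −0.10 on the log2 scale. Family shares moved by at most 13.6 percentage points (Louvain clusters) and by a median of 0.0209 to 0.568 points across alternatives. The precision of class comparisons is limited by 2 or 3 sums per class, and that of D44 by its 19 mesenchymal-gated cells.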
